A study of Homo sapiens with 30 samples.

Results

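The recovery of BEAS-2B cells after the smoke of herbal shisha burnt on charcoal was followed by setting 3 wells harvested 24 h after the exposure against 3 wells harvested 2 h after it. These 6 libraries were chosen by their labelled treatment and time and are 6 of the 30 in the series. BEAS-2B is an established line of human bronchial epithelial cells that grows as an adherent monolayer. In the series, such cells were held for 30 min on a rocker with an exposure from hookah smoking, at the highest level that released no LDH (a cytosolic enzyme that leaks from dying cells) by 24 h. RNA was then taken in Trizol from 3 wells per group and time, and libraries from 1 ug of total RNA were sequenced as 50 bp single reads.

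Both herbal groups carried the labels charcoal and non-tobacco, which the design text gives as a herbal shisha without tobacco on charcoal. The same time comparison was available in 3 settings used here beside it. Control wells were harvested at 2 h and 24 h, and the sources used here do not give what they received. Wells exposed to charcoal without shisha had the same heat source and no product, and wells exposed to tobacco shisha on charcoal had tobacco in place of the herbal product. Each of these groups also had 3 wells per time. Whether wells that share a group came from separate cultures is not given in the sources used here, so p-values measure the spread between wells, which may be technical.

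Cells that meet a chemical or mechanical stress first switch on immediate early genes, whose transcripts appear within minutes because the factors that transcribe them are already present, and decay quickly through unstable messages. Slower programmes follow, among them the NRF2 response to electrophiles and oxidants, the hypoxia response, sterol feedback and the arrest or restart of the cell cycle. Smoke from charcoal and from heated shisha carries carbon monoxide, aldehydes, polycyclic aromatic hydrocarbons and metals, all of which can act on such programmes in airway epithelium.

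The values were deposited as FPKM, a level scaled to transcript length and to the reads of the library. The 6 libraries each held 7624 to 7884 genes at 1 FPKM or more, with FPKM sums of 202018 to 207895, against 7598 to 7944 genes and sums of 197188 to 216839 over all 30 libraries. Correlations of log2(FPKM + 1) across genes were 0.987 to 0.991 between wells of one time and 0.964 to 0.967 between the times. The labelled cell type was only in part matched by its markers. Of 9 epithelial markers, 7 had a row, and KRT8, KRT18 and KRT19, the keratins of simple epithelium, lay between 35.4 and 598 FPKM in the 6 wells, while CDH1, EPCAM, KRT5 and KRT14, the adhesion proteins and basal keratins, were under 1 FPKM in all of them. THY1 and COL1A1, which mark fibroblasts, were at 130.4 to 138 and 102 to 133 FPKM. Most of the fibroblast list was low, however. Of its 11 members 10 had a row, and 6 were under 1 FPKM in all 6 wells, 3 of them listed at 0. All 9 red blood cell genes, 10 of 14 immune cell markers and 8 of 13 secretory and mucin markers were listed at 0 in all 6 wells, and all 11 ciliated cell markers with a row were under 1 FPKM. The summed FPKM of the immune list was 21.1 to 23.2 at 2 h and 20.8 to 23.1 at 24 h, nearly all of it from CD14 and CD68, and that of the fibroblast list was 276 to 291 and 250.4 to 278.

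Between 2 h and 24 h after herbal shisha, 3138 genes rose and 1172 fell among the 8531 tested, at an adjusted p below 0.05 in limma. These are 36.8% and 13.7% of all genes tested, 50.5% in all, so a rise or fall of a single gene here is not rare. The falls were the larger changes: 198 genes (2.32%) fell and 28 (0.328%) rose by at least 2-fold on the log2(FPKM + 1) scale, the scale of all changes below, which understates changes of genes near or under 1 FPKM. The split of rises and falls depends on the scaling between libraries. With a median-of-ratios scaling, under which the median over all genes went from 0.11 to 0.00, 1847 of 8491 genes (21.8%) rose and 1919 (22.6%) fell. In bulk RNA, fewer cells of a type and less RNA per cell cannot be told apart.

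Immediate early genes held 8 of the 12 largest falls. Of 32 listed, 26 were tested, 25 fell and none rose, against 13.7% and 36.8% of all genes. These counts were the same with scaling. The median change was -2.41 against 0.11 over all genes, and KLF6 alone was not called. NR4A1, an orphan nuclear receptor that responds to growth and stress signals (chr12:52022832-52059503 on hg38), was at 57.2, 67.5 and 58.6 FPKM in the 3 wells at 2 h and at 0.596, 0.539 and 0.799 FPKM at 24 h. Its control wells were at 0.784, 0.842 and 0.726 FPKM at 2 h and 1.18, 1.08 and 0.754 FPKM at 24 h, so the 3 wells at 2 h stood far above the other 9 and the 24 h wells lay in or just under the control range. The change was -5.24 (SE 0.24, adjusted p = 4.40e-13, limma). EGR1, a zinc finger factor of the same early wave (chr5:138465479-138469303), went from 25.5, 28 and 28.3 FPKM to 1.41, 2.31 and 1.76 FPKM, with control wells at 1.68, 1.98 and 1.57 FPKM and 3.07, 3.17 and 1.70 FPKM. Again every well at 2 h was above every other well, and the change was -3.33 (SE 0.22, adjusted p = 3.65e-11, limma).

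The EGR1 promoter is printed because it is the textbook target of serum response factor, which binds the CArG box. The 300 bases from 250 before to 50 after its start, chr5:138465229-138465528 on the plus strand of RefSeq GRCh38.p14, hold 2 matches to that motif, shown in capitals.
EGR1: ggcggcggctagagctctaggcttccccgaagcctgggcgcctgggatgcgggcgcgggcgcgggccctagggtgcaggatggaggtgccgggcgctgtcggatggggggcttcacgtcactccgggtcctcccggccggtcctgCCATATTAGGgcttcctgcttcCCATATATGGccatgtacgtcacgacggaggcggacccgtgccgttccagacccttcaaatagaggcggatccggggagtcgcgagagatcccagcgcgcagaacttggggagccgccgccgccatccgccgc
RefSeq promoters were matched by symbol for 6267 of the 8531 tested genes. A CArG box on either strand was found in 2 of the 22 immediate early promoters (9.09%) and in 60 of all 6267 (0.957%). The core TGACG of the cyclic AMP response element, on either strand, was found in 12 of 22 (54.5%) against 35% of all. Such a match describes the letters of the window and shows no binding.

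The AP-1 and ATF members of the early list also fell. FOS fell from 9.79, 8.97 and 11.8 FPKM to 0.433, 0.338 and 0.358 FPKM and JUNB from 114, 131 and 101 FPKM to 13.6, 13.4 and 14 FPKM, both subunits of AP-1. ATF3, a stress-induced repressor of the same family, fell from 53.4, 56.8 and 56.8 FPKM to 2.36, 3.38 and 3.19 FPKM. All 3 wells at 24 h lay below all 3 at 2 h in 25 of the 26 tested members, which was so for 16.6% of all genes. Feedback inhibitors of growth factor signalling fell with them: DUSP5, a nuclear ERK phosphatase, fell by 4.03, ERRFI1, an inhibitor of the EGF receptor, by 3.45, and SPRY4, which damps receptor tyrosine kinases, by 3.54. EGR3 was at 11.2, 13.3 and 12.5 FPKM at 2 h and almost absent at 24 h, at 0.0182, 0.0141 and 0.0258 FPKM. At 24 h the mean levels of the tested members ranged from 0.02 to 28.3 FPKM. ZFP36, whose protein destabilises AU-rich messages, changed less, from 14.5, 14.9 and 14.6 FPKM to 5.68, 4.74 and 5.44 FPKM. The exception was KLF6, at 8.44, 7.79 and 6.49 FPKM and then 2.34, 3.53 and 12.2 FPKM, where the third well at 24 h lay above all wells at 2 h. In 24 of the 26 tested members, all 3 herbal wells at 2 h exceeded all 3 control wells at 2 h, which was so for 18.6% of all genes.

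In the control wells no early gene rose and 2 of 26 fell over the same interval, with a median of 0.01. The difference of the herbal from the control time change was called lower for 24 of 26 members, against 8.3% of all genes. For NR4A1 this difference was -5.40 and for EGR1 -3.72. By 24 h, 3 of 26 were still called against the control wells of the same time, all lower (10.4% of all genes were lower): JUND (-0.74), JUN (-0.53) and JUNB (-0.35). This count was 1 without the second control well at 24 h and 5 with these 2 groups fitted alone. In 11 of the 26, all herbal wells at 24 h were below all control wells of that time, and in none above. This was so for 15.6% and 25.9% of all genes. These comparisons share the herbal wells and are not independent of each other.

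**Figure D1:**
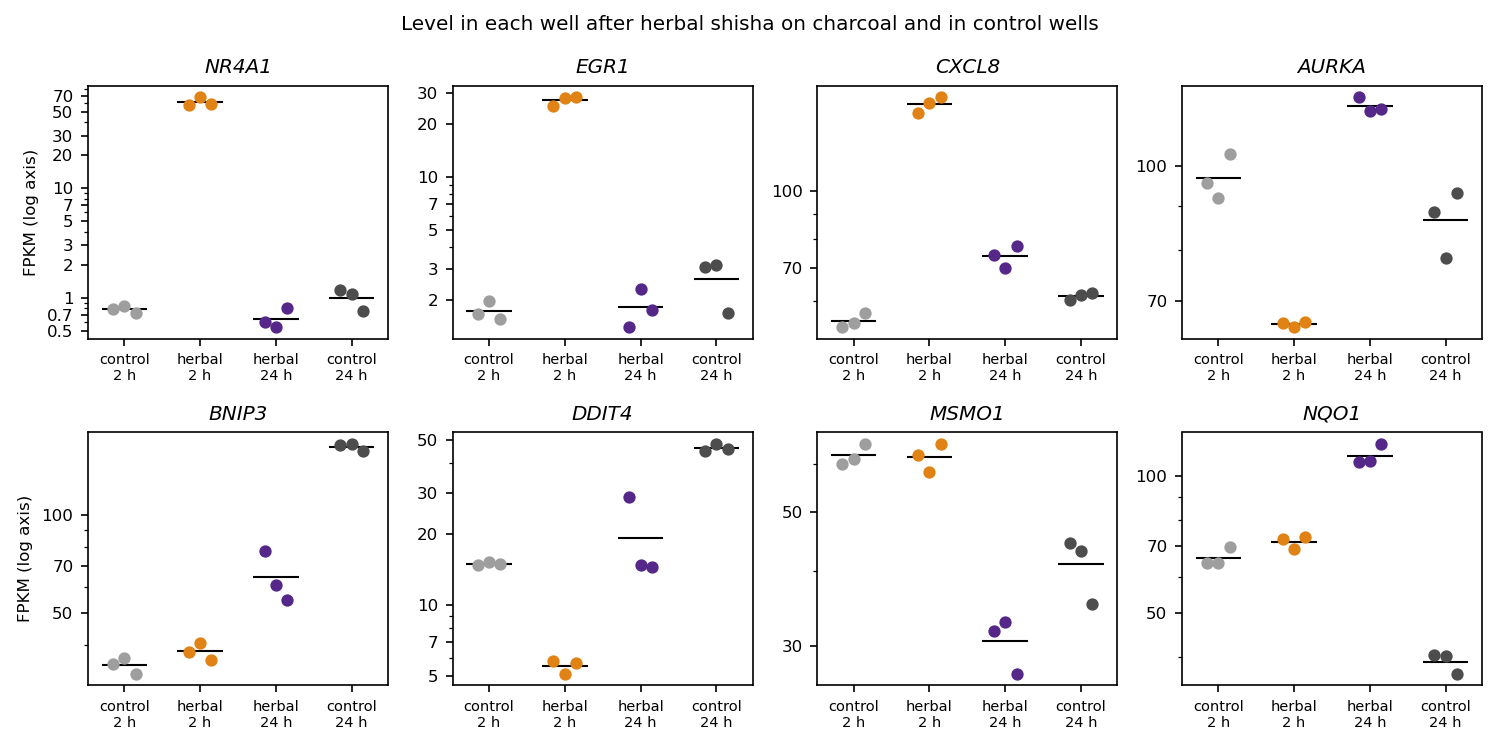
FPKM (log axis) of 8 genes in each well: control 2 h, herbal 2 h, herbal 24 h and control 24 h, 3 wells each, with the group mean as a bar. NR4A1, EGR1 and CXCL8 were highest in the herbal wells at 2 h, the herbal wells of AURKA were below the control wells at 2 h and above them at 24 h, those of BNIP3 and DDIT4 at 24 h lay between the 2 h herbal and the 24 h control wells, and those of NQO1 and MSMO1 at 24 h lay above and below all control wells.

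Genes of Notch signalling and development, most of them transcription factors, followed the same course. Of 15 listed, 10 were tested, 9 fell and none rose (median -1.97), against 13.7% and 36.8% of all genes. The time change was lower than in control wells for 7 (8.3% of all genes). HES1, the main Notch effector and a repressor, fell from 44, 49.8 and 46.9 FPKM to 1.73, 1.17 and 1.13 FPKM (-4.36, SE 0.25, adjusted p = 5.18e-12, limma), without overlap. DLX2, a homeobox factor, fell from 23.6, 26.6 and 20.4 FPKM to 1.11, 1.35 and 1.07 FPKM. SOX9 fell by 2.33, and SNAI1 and SNAI2, the repressors of epithelial adhesion genes, by 2.18 and 1.90. HES4 was not called (0.02) but was lower than in control wells at 24 h (-1.02).

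Genes linked to YAP and SRF, factors that read cell shape and actin tension, mostly fell. Of 22 listed names, 11 genes were tested, 8 fell and 1 rose, against 13.7% and 36.8% of all genes. The rise was that of AXL, a receptor tyrosine kinase (0.36). ANKRD1 fell from 98.6, 90.6 and 94.2 FPKM to 1.09, 2.95 and 3.24 FPKM, and CYR61, a secreted matricellular protein, from 641, 676 and 619 FPKM to 137, 204 and 214 FPKM. Well 1 at 24 h was the lowest of the 3 for 10 of these 11 genes, and without it 6 fell and 1 rose. With scaling 10 fell and 1 rose. The structural members changed less: VCL (vinculin) fell by 0.62 and ACTN1 (alpha-actinin) by 0.33.

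Inflammatory messengers were lower at 24 h in part. Of 25 cytokines and NF-kB targets, 16 were tested, 8 fell and 3 rose, against 13.7% and 36.8% of all genes. CXCL8, the neutrophil chemokine interleukin 8 (chr4:73740569-73743716), was at 144, 151 and 155 FPKM at 2 h and 74.4, 70.0 and 77.5 FPKM at 24 h, with control wells at 53.1, 54.2 and 56.8 FPKM and 60.3, 61.8 and 62.1 FPKM. The level thus fell by 1.01 (SE 0.10, adjusted p = 4.81e-08, limma) and all 3 wells at 24 h were still above all 3 control wells, by a difference of 0.26 that was not called (adjusted p = 0.065, limma). IL6 fell from 20.5, 20.1 and 24.2 FPKM to 5.81, 5.66 and 4.89 FPKM, IL11, of the same cytokine family, fell by 2.63 and CSF2, a myeloid growth factor, by 1.49. IL1B fell from 31.3, 31.5 and 33.4 FPKM to 16.9, 14.9 and 15.1 FPKM. The 3 that rose were BIRC3, an inhibitor of apoptosis (0.57), PTX3, a soluble pattern receptor (0.39), and NFKB2 (0.28), which was not called with scaling.

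Of 7 AHR targets, genes of the receptor for polycyclic aromatic hydrocarbons, 3 were tested and all fell (13.7% of all genes did). CYP1B1, a cytochrome that oxidises such compounds, fell from 23.1, 26.3 and 24.3 FPKM to 9.98, 8.37 and 6.14 FPKM, with a time change that did not pass the test against the control change (-0.53, adjusted p = 0.174, limma). TIPARP, which represses the receptor, fell by 1.41 and was still above control wells at 24 h (0.37), a call that was lost without the second control well or the third herbal well at 24 h. The zinc exporter SLC30A1, a target of the metal sensor MTF1, fell from 46.6, 48.4 and 47.6 FPKM to 16.7, 15.1 and 15.9 FPKM, and MT1E and MT1X, metallothioneins that bind zinc and copper, fell by 0.95 and 0.51. MT1F (-0.22) and MT2A (0.07) were not called. The metallothioneins are close paralogs, so their 50 bp reads may be shared.

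Genes of mitosis rose together, the group with the most called rises among the lists. Of 46 mitosis and G2/M genes, 35 were tested, 30 rose and none fell, against 36.8% and 13.7% of all genes. The median was 0.40. With scaling 26 rose and 1 fell. AURKA, a spindle pole kinase (chr20:56369390-56392215), went from 66, 65.4 and 66.2 FPKM to 119.7, 115 and 116 FPKM, while control wells were at 95.5, 91.8 and 103 FPKM at 2 h and 88.4, 78.4 and 93.2 FPKM at 24 h. The herbal wells were below all control wells at 2 h and above all of them at 24 h. The change was 0.82 (SE 0.06, adjusted p = 3.52e-10, limma), and its difference from the control change 0.98. TTK, the spindle checkpoint kinase also called MPS1, rose from 17.1, 16.4 and 16.7 FPKM to 32.6, 30.0 and 31.4 FPKM, with control wells at 28.1, 28.3 and 29.3 FPKM and 29.3, 27.9 and 28.8 FPKM. CCNA2, cyclin A2, rose from 38.4, 37.6 and 36.3 FPKM to 61.3, 64 and 61 FPKM.

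The members differed in how far they came back. In 30 of 35, all herbal wells at 2 h were below all control wells at 2 h, which was so for 40.3% of all genes. At 24 h, 12 were called higher than control wells (16.5% of all genes were) and 3 lower. The 12 included AURKA (0.43), CCNB1 (0.33), CENPA (0.33) and BIRC5 (0.29), and the lower 3 were CENPE (-0.59), CENPF (-0.58) and TOP2A (-0.21). Without the third herbal well at 24 h none was called lower, and without the first 5 were. CENPE, a kinetochore motor, and CENPF, a kinetochore protein, were the members that stood lowest at 2 h, and their changes of 0.29 and 0.28 did not pass the test (adjusted p = 0.134 and 0.138, limma). Well 1 at 24 h, the deepest of the 6 by the low-value steps (1.51 times the median of the 30 libraries), was the highest of its group for 27 of 35 members, and without it 28 rose and none fell. In 30 of 35 members all 3 wells at 24 h were above all 3 at 2 h (42.6% of all genes). With any 1 herbal well left out, 27 to 30 members rose.

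Against the control time change, 28 of 35 rose more and none less (24% of all genes were higher), and 17 rose more and 1 less with scaling. In the control wells 1 of 35 rose and 1 fell, with a median of 0.01. After charcoal alone 28 of 35 rose and none fell, and after tobacco shisha on charcoal 27 rose and 1 fell. Of all 8531 genes, 2570 rose and 1058 fell after charcoal, and 3365 rose and 1361 fell after tobacco. Genes of DNA replication and S phase moved both ways. Of 47 listed, 30 were tested, 9 rose and 6 fell, against 36.8% and 13.7% of all genes. With scaling 3 rose and 13 fell, against 21.8% and 22.6% of all genes. CDT1, the licensing factor, rose by 0.52, and MCM6, a helicase subunit, fell by 0.26. The 6 falls became 2 without the third herbal well at 24 h or the first at 2 h, and 3 without the third at 2 h. CCNF, the cyclin of an F-box ubiquitin ligase, rose from 5.26, 5.82 and 5.46 FPKM to 14.8, 14.6 and 14.6 FPKM with control wells at 14.9, 14.8 and 14.3 FPKM and 13.4, 14.3 and 13.8 FPKM.

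**Figure D2:**
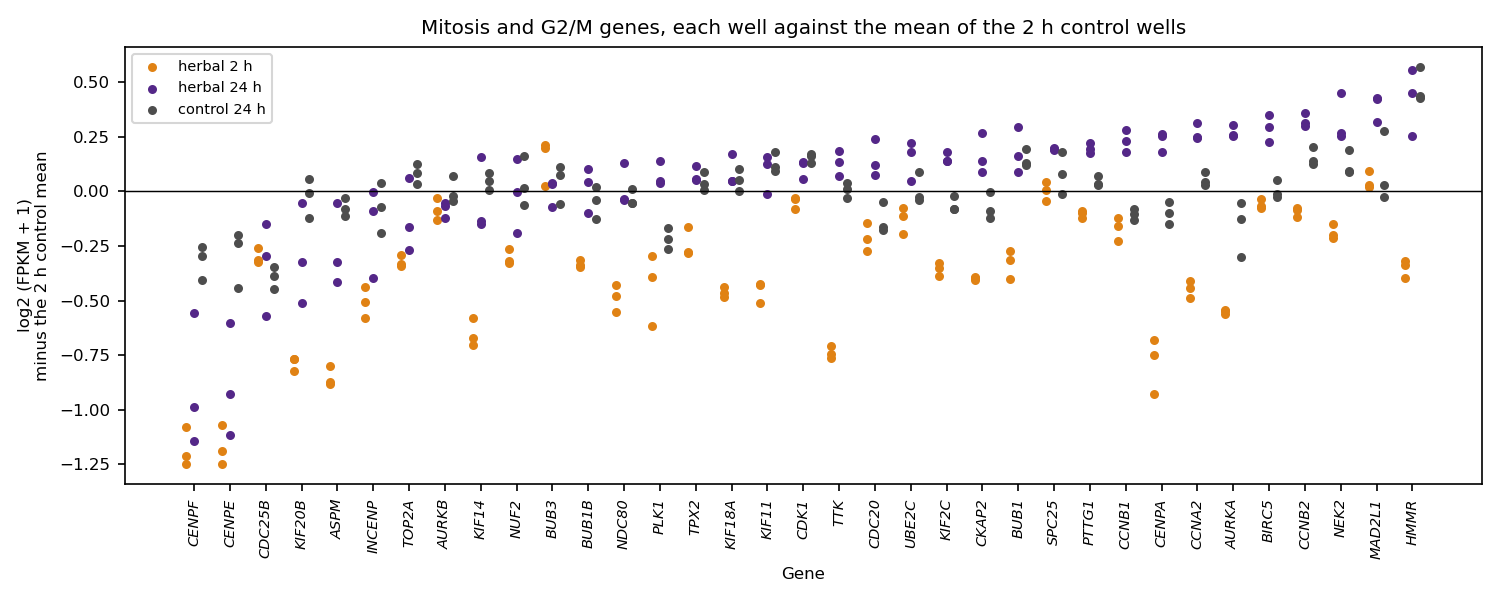
Each dot is 1 well, drawn as log2(FPKM + 1) minus the mean of the 2 h control wells, for the 35 tested mitosis and G2/M genes ordered by the 24 h herbal mean on this scale. In 30 of 35 genes the herbal wells at 2 h lay below all control wells of that time, and in 30 the herbal wells at 24 h lay above all those at 2 h. With scaling 26 of the 35 rose and 1 fell.

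Promoters of this group are printed because a pair of motifs recurs in them, the CHR element TTTGAA (the cell cycle genes homology region bound by the DREAM and MYB-MuvB complexes) and the CCAAT box of NF-Y. The windows are chr1:43358731-43359030 for CDC20, chr16:23678639-23678938 for PLK1 and chr2:26785806-26786105 for CENPA, all on the plus strand of RefSeq GRCh38.p14, with matches on either strand in capitals.
CDC20: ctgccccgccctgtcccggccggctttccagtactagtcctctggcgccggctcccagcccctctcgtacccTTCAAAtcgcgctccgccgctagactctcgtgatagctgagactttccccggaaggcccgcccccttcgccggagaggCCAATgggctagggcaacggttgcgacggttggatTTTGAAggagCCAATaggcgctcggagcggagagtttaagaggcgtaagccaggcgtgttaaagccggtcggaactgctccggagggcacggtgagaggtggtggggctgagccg
PLK1: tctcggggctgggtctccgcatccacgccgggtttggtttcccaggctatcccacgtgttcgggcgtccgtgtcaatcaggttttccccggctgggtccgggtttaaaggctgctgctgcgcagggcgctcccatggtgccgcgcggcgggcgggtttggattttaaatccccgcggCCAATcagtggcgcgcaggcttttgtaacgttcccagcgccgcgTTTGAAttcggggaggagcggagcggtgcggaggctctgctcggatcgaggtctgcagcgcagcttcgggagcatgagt
CENPA: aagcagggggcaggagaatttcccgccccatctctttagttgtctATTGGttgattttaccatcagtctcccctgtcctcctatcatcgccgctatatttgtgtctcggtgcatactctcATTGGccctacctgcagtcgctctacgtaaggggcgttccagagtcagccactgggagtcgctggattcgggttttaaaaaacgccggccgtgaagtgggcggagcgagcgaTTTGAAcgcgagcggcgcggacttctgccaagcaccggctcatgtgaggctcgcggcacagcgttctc
These windows hold 4, 2 and 3 matches. The letters TTTGAA on either strand were found in 19 of 29 promoters of the list (65.5%), against 577 of all 6267 (9.21%), 4 of 22 early gene promoters (18.2%) and 1 of 25 hypoxia promoters (4%). CCAAT was found in 22 of 29 (75.9%) against 36.7% of all. It was as frequent in the cholesterol list, in 8 of 10 promoters (80%). Early gene promoters held it in 10 of 22 (45.5%) and hypoxia promoters in 9 of 25 (36%). The 3 genes rose: CENPA, the centromeric histone, from 19.3, 16.2 and 18.4 FPKM to 37.9, 36 and 38.2 FPKM (1.02), CDC20, an activator of the anaphase complex, from 113, 119 and 109 FPKM to 138, 143 and 155 FPKM (0.36), and PLK1, a mitotic kinase, from 83, 88.9 and 71.1 FPKM to 113, 112 and 120.3 FPKM (0.51).

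Hypoxia and glycolysis genes rose in the control wells over time and largely did not after herbal shisha. Of 37 listed, 28 were tested. In control wells 24 of 28 rose from 2 h to 24 h and none fell (median 0.67, against 7.44% of all genes rising). After herbal shisha 7 rose and 6 fell (median 0.04, against 36.8% and 13.7% of all genes), with 5 and 8 under scaling and 4 rising when the herbal groups alone were fitted. The time change was lower than the control change for 24 of 28 and higher for none, against 8.3% and 24% of all genes. The median difference was -0.59, and the counts were the same with scaling. At 24 h, 25 of 28 had all herbal wells below all control wells, which was so for 15.6% of all genes. Of the 28, 23 were called lower than control wells (10.4% of all genes). After charcoal alone 20 of 28 rose and 4 fell over time (2570 and 1058 of all 8531 genes). After tobacco shisha on charcoal 5 rose and 12 fell (3365 and 1361). The herbal change was lower than the charcoal change for 14 and higher for none, against 7.1% and 8.97% of all genes. From the tobacco change it differed for 1, which was higher (0.328% of all genes were).

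BNIP3, a mitophagy receptor and direct target of hypoxia-inducible factor (chr10:131967684-131981923), was at 37.9, 40.5 and 35.9 FPKM at 2 h and 77.9, 60.9 and 55.1 FPKM at 24 h. Control wells were close to this at 2 h, at 34.9, 36.4 and 32.6 FPKM, and far higher at 24 h, at 164, 166 and 158 FPKM. BNIP3 thus rose after herbal shisha (0.73, SE 0.09, adjusted p = 4.43e-07, limma) by less than in control wells (difference -1.47), and the wells at 24 h did not overlap with either set. Its promoter is printed for the core ACGTG of the hypoxia response element. The window is chr10:131981874-131982173, given 5′ to 3′ on the minus strand of RefSeq GRCh38.p14, and the capitals mark a palindrome in which both strands match, counted as 2 overlapping matches.
BNIP3: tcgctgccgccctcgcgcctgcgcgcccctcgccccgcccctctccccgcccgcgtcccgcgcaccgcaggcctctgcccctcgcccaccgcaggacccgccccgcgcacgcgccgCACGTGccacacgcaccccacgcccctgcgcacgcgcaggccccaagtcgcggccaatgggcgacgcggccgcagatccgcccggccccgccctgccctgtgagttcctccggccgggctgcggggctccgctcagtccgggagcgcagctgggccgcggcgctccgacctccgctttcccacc
The core was found in 11 of 25 hypoxia promoters (44%) against 27% of all, and also in 11 of 29 mitotic (37.9%) and 9 of 22 early gene promoters (40.9%).

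DDIT4, an inhibitor of mTORC1 that responds to low oxygen and to stress (chr10:72273924-72276036), was the member with the largest rise, from 5.83, 5.14 and 5.68 FPKM to 28.7, 14.8 and 14.6 FPKM (1.57). Its herbal wells were below the control wells at both times (14.8, 15.2 and 15 FPKM at 2 h and 45.1, 48.3 and 46.1 FPKM at 24 h), and the difference between the time changes was not called (-0.00, SE 0.22, adjusted p = 0.999, limma). NDRG1, a stress-induced gene, was at 17.1, 17 and 17 FPKM and then 27.6, 10.2 and 9.07 FPKM, so that well 1 was above and wells 2 and 3 below all wells at 2 h, and it was not called (-0.29). In the control wells NDRG1 reached 41.9, 45.1 and 39.5 FPKM at 24 h. Well 1 at 24 h was the highest of its group for 22 of the 28 genes. Without it 5 rose and 9 fell over time, the time change was lower than the control change for 25, and 23 were lower than control wells at 24 h.

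The enzymes of glycolysis showed the same shortfall with little change of their own. Values are given for PGK1, phosphoglycerate kinase, LDHA, lactate dehydrogenase, HK2, hexokinase, and PDK1, a kinase that inhibits pyruvate dehydrogenase. Their changes after herbal shisha were 0.08, 0.16, 0.01 and 0.17, none called. Their differences from the control change were -0.87, -0.96, -1.42 and -1.08, all called. SLC2A1, the glucose transporter GLUT1, fell from 76, 79.3 and 76.8 FPKM to 59, 52.5 and 47.2 FPKM. VEGFA, the endothelial growth factor, and ADM, a vasodilator peptide, stood high at 2 h and fell, VEGFA from 12.4, 11.7 and 12.6 FPKM to 4.36, 3.32 and 3.74 FPKM and ADM from 139, 175 and 149 FPKM to 36.1, 56.1 and 63.9 FPKM. TXNIP, a glucose-responsive inhibitor of thioredoxin outside this list, rose from 11.2, 10.8 and 12.8 FPKM to 33.6, 29 and 25.2 FPKM, below its control wells at both times, which were at 20.4, 21.6 and 18.7 FPKM and 54.8, 55.6 and 55.3 FPKM.

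**Figure D3:**
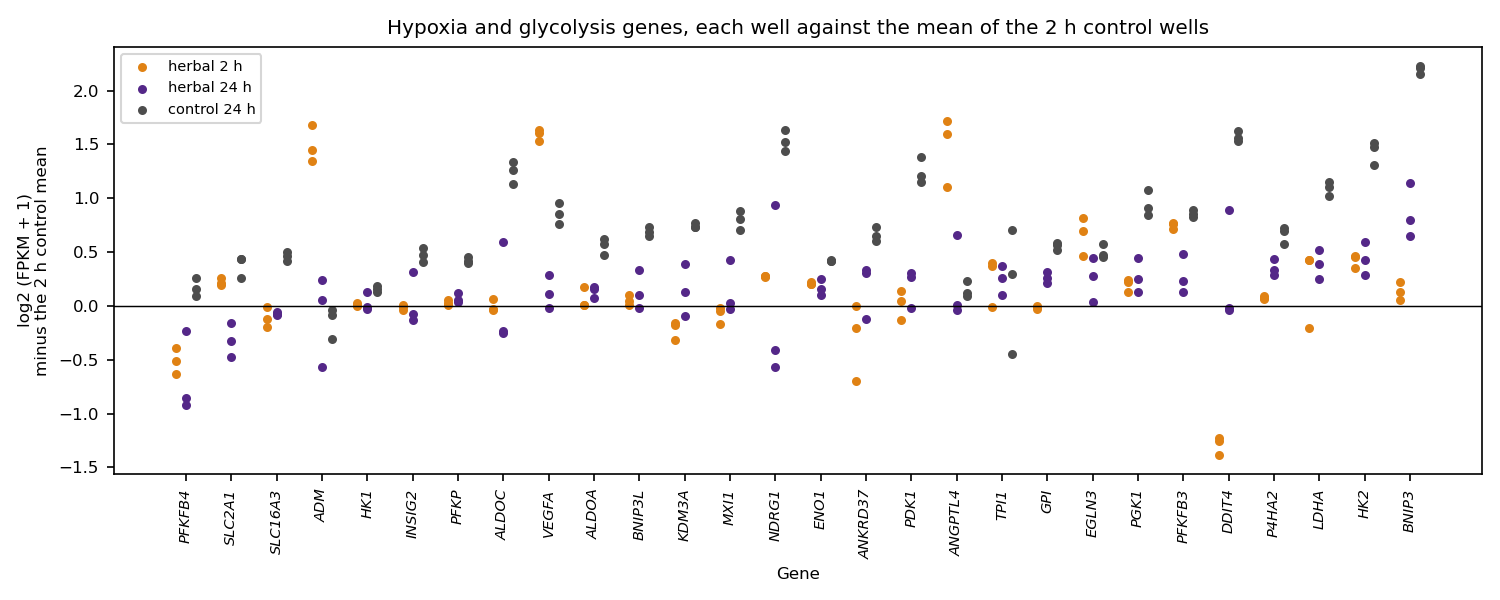
Each dot is 1 well, drawn as log2(FPKM + 1) minus the mean of the 2 h control wells, for the 28 tested hypoxia and glycolysis genes ordered by the 24 h herbal mean on this scale. The control wells at 24 h lay above the herbal wells at 24 h in 25 of 28 genes, and ADM, VEGFA and ANGPTL4 were highest in the herbal wells at 2 h.

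Targets of NRF2, the transcription factor of the response to electrophiles, split in their time course, and many stood above control wells at 24 h. Of 29 listed, 21 were tested, 6 rose and 6 fell, where 36.8% of all genes rose and 13.7% fell. With scaling 1 rose and 9 fell, and without the third herbal well at 24 h 3 rose. NQO1, a quinone reductase (chr16:69709401-69726560), was at 72.5, 69.2 and 73.4 FPKM at 2 h and 107, 108 and 118 FPKM at 24 h, with control wells at 64.3, 64.2 and 69.9 FPKM and 40.3, 40.1 and 36.8 FPKM. It rose by 0.62 (SE 0.07, adjusted p = 3.63e-07, limma) while it fell in control wells (-0.74), and it stood 1.48 above them at 24 h. GCLM and GCLC, the subunits of glutathione synthesis, rose by 0.26 and 0.19, and neither was called with scaling. Fast responders fell: OSGIN1 from 5.02, 5.63 and 5.77 FPKM to 1.59, 1.42 and 2.06 FPKM and TXNRD1, thioredoxin reductase, from 223, 214 and 222 FPKM to 135, 149 and 139 FPKM. SRXN1, which repairs peroxiredoxins, fell by 0.35 and was still above control at 24 h (0.43).

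At 24 h 12 of 21 NRF2 targets were called higher than control wells and none lower, against 16.5% and 10.4% of all genes. These counts were the same with scaling. In 15 all herbal wells were above all control wells (25.9% of all genes). In control wells 9 of 21 fell over time and none rose (9.44% and 7.44% of all genes). The herbal time change was higher than the control change for 8 and lower for 4 (24% and 8.3% of all genes). The lower count was 2 without the first control well at 24 h, the third control well at 2 h, the second herbal well at 24 h or the third herbal well at 2 h.

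Proteasome subunits rose by small amounts that rest on the scaling. Of 31 listed, 26 were tested, 15 rose and none fell (median 0.13, against 36.8% of all genes rising), but 2 rose and 1 fell with scaling, 7 rose without the third herbal well at 24 h and 9 without the second at 2 h. The difference from control wells at 24 h held more members. Of 26, 21 were higher and none lower, against 16.5% and 10.4% of all genes, and 19 were higher with scaling. PSMD11, of the lid, PSMD2, of the base, and PSMB5, the chymotrypsin-like catalytic subunit, each stood 0.42 above control wells. Of 20 tested heat shock genes, from 24 listed, 8 rose and 2 fell, which is near the 36.8% and 13.7% of all genes, against 2 and 4 with scaling, and 5 rose without the third herbal well at 24 h. HSP90AA1, the inducible HSP90, and its cochaperone FKBP4 rose by 0.71 and 0.62, and DNAJB1, an HSP40 of the acute response, fell by 0.80. HSPA1A and HSPA1B, near-identical copies whose reads may be shared, were not called (-0.03 and -0.06). At 24 h, 8 of the 20 were called higher than control wells and none lower, against 16.5% and 10.4% of all genes. The higher count was 6 with scaling and 3 to 8 with 1 library left out. In 17 all herbal wells were above all control wells, which was so for 25.9% of all genes.

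Genes of sterol and fatty acid synthesis fell, and most fell in control wells as well. Of 25 cholesterol genes, 16 were tested, 14 fell and none rose (median -0.81), against 13.7% and 36.8% of all genes. In control wells 12 of 16 fell (median -0.58, against 9.44% of all genes falling). MSMO1, a sterol methyl oxidase (chr4:165327669-165343164), went from 62.1, 58.1 and 64.7 FPKM to 31.7, 32.9 and 27 FPKM and in control wells from 60.1, 61.1 and 64.8 FPKM to 44.5, 43.1 and 35.2 FPKM. All herbal wells at 24 h were below all the other 9 wells. The change was -0.99 (SE 0.09, adjusted p = 1.10e-08, limma), and it was more negative than the control change (difference -0.40, SE 0.13, adjusted p = 0.0233). This difference was no longer called without control well 1 at 2 h (adjusted p = 0.0508), control well 1 or 2 at 24 h (0.0715 and 0.0616), herbal well 3 at 2 h (0.0572) or herbal well 3 at 24 h (0.0764), each by limma. HMGCS1, the synthase before the rate-limiting step, fell from 50.9, 48.3 and 53.4 FPKM to 25.8, 25.7 and 20.2 FPKM.

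Of 14 fatty acid genes, 12 were tested and 10 fell (13.7% of all genes), and 8 fell in control wells (9.44% of all genes). SCD, the delta-9 desaturase, fell from 241, 255 and 251 FPKM to 127, 103 and 91.7 FPKM (-1.22), further than in control wells (difference -0.49). FASN, fatty acid synthase, fell by 0.70, less than in control wells (difference 0.56).

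Amino acid genes driven by ATF4 moved both ways. Of 26 listed, 19 were tested, 5 rose and 5 fell, against 36.8% and 13.7% of all genes. With scaling 3 rose and 7 fell, against 21.8% and 22.6% of all genes. When the herbal groups alone were fitted, 3 rose. PPP1R15A (GADD34), which turns the stress response off by dephosphorylating eIF2-alpha, fell from 119.6, 126 and 119 FPKM to 19.4, 22.1 and 20.8 FPKM. ASNS, asparagine synthetase, was at 6.61, 7.28 and 7.65 FPKM and then 7.85, 21.3 and 25.8 FPKM, and PSAT1, of serine synthesis, at 33.6, 34.2 and 34.6 FPKM and then 51.1, 84.2 and 99.6 FPKM. Both rose (1.09 and 1.12), as they did in control wells (1.23 and 1.03), and wells 2 and 3 lay well above well 1. For ASNS the call was lost when the herbal groups alone were fitted (adjusted p = 0.06, limma). Aminoacyl-tRNA synthetases load amino acids on tRNA. Their list holds 38 names, many of them old and new symbols of the same gene, and 17 genes were tested. Of these 11 rose and none fell (36.8% and 13.7% of all genes), against 8 and 1 with scaling (21.8% and 22.6%). In control wells 11 rose too (7.44% of all genes). Well 1 at 24 h was the lowest of its group for 15 of these 17 and for 15 of the 19 ATF4 genes. Without it 13 of the synthetases rose and none fell, and 6 ATF4 genes rose and 4 fell.

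Matrix and junction genes were lower at 24 h in larger numbers than they were higher. Of 44 extracellular matrix and mesenchymal genes, 29 were tested, 12 fell and 7 rose, where 13.7% of all genes fell and 36.8% rose. With scaling 15 fell and 4 rose, against 22.6% and 21.8% of all genes. PLAU, urokinase, fell from 169.9, 158 and 170.1 FPKM to 46.4, 45.8 and 42.3 FPKM, THBS1, thrombospondin 1, from 549, 514 and 523 FPKM to 122, 183 and 183 FPKM, and FN1, fibronectin, from 405, 370.3 and 365 FPKM to 277, 233 and 239.6 FPKM. At 24 h 17 of 29 were called lower than control wells and 1 higher, against 10.4% and 16.5% of all genes. Among junction and keratin genes, 13 of 28 were tested, 6 fell and 2 rose, against 13.7% and 36.8% of all genes. CLDN1, a tight junction claudin, fell from 103, 100.3 and 107 FPKM to 27.8, 30.8 and 29.1 FPKM. KRT8, KRT18 and KRT19 fell by 0.29, 0.49 and 0.36, and KRT81, a hair keratin, rose from 3.69, 3.13 and 3.93 FPKM to 7.05, 10.4 and 10.7 FPKM.

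**Figure D4:**
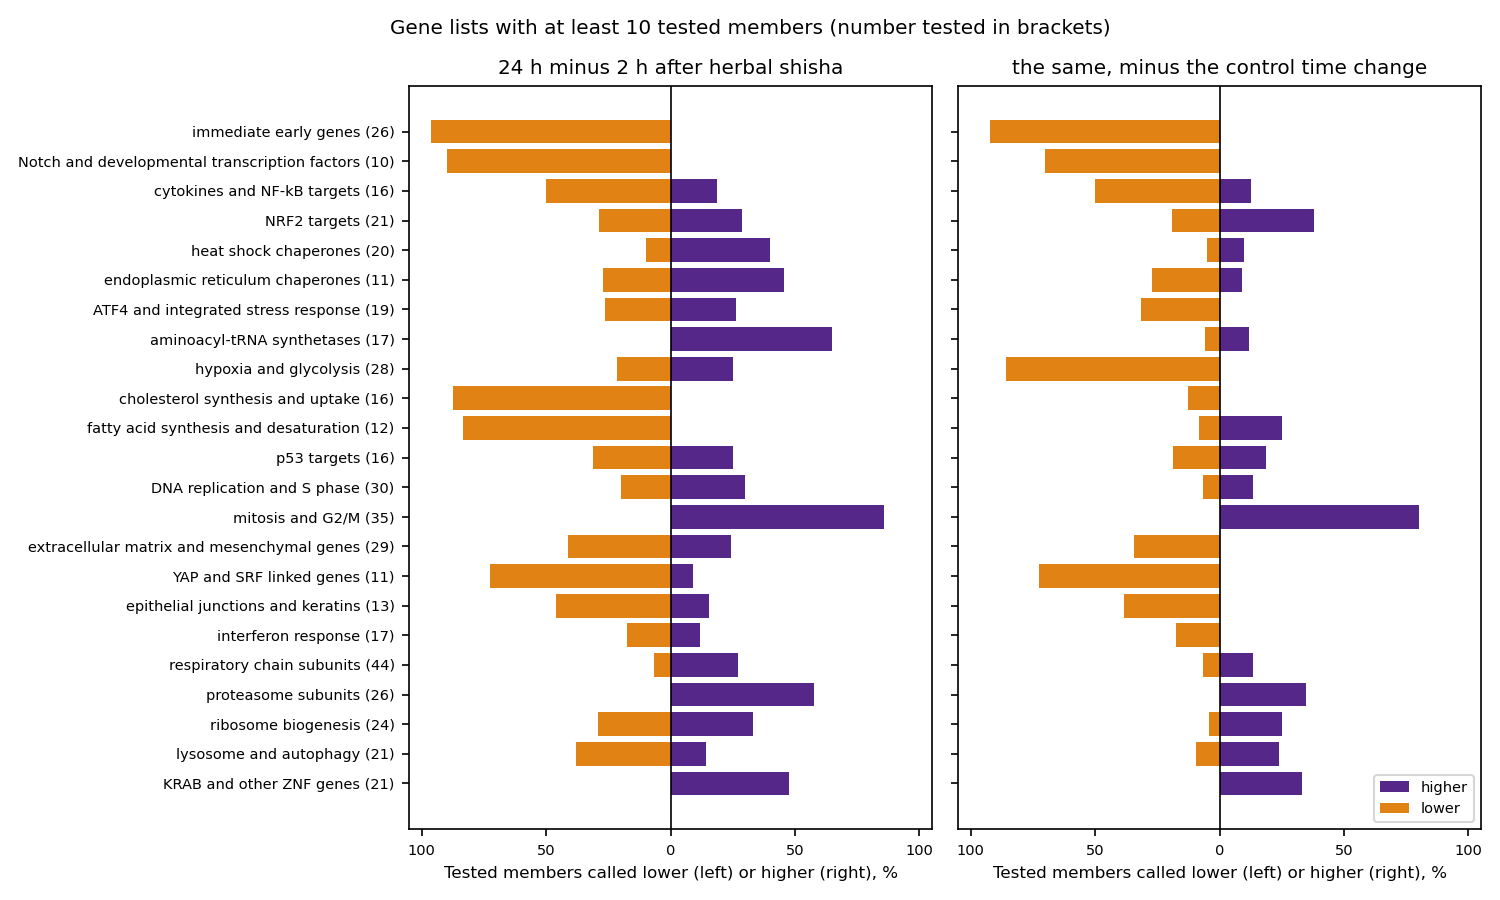
Share of the tested members of each list that were called higher (right) or lower (left): on the left panel 24 h minus 2 h after herbal shisha, on the right panel the same minus the control time change. Bars read against 36.8% higher and 13.7% lower of all genes on the left and 24% and 8.3% on the right. With scaling, the left panel turns from mostly higher to mostly lower for S phase, heat shock, respiratory chain, hypoxia and glycolysis, endoplasmic reticulum chaperone and ribosome biogenesis genes.

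Over all genes, the time change after herbal shisha differed from that in control wells for 2756 of 8531 genes (32.3%), 2048 more positive (24%) and 708 more negative (8.3%), and 975 (11.5%) and 1199 (14.1%) with scaling. Control wells alone changed in 1440 genes (16.9%), 635 higher and 805 lower. These time comparisons share no wells. Of genes called in both and in their difference, 148 rose after herbal shisha and fell in control wells while 45 fell and rose. Both counts are on values without scaling.

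**Figure D5:**
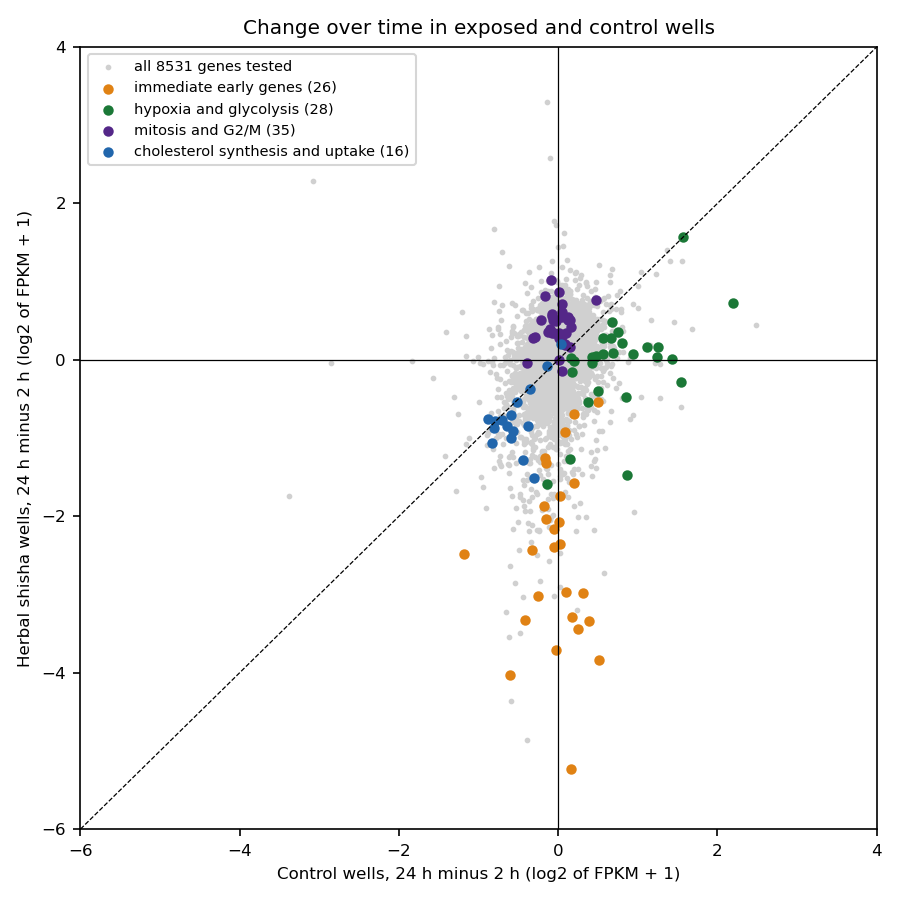
Change over time in herbal wells (vertical) against control wells (horizontal), both log2(FPKM + 1), for the 8531 tested genes with 4 lists in colour and a dashed line of equal change. Most early genes lie far below the horizontal line near no control change, hypoxia genes mostly right of the vertical line and under the dashed one, most mitotic genes above the horizontal line, and cholesterol genes near the dashed line, on values without scaling.

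At 24 h, 2289 genes (26.8%) were called between herbal and control wells, 1406 higher and 883 lower. The count of 2289 fell to 1420 without the third herbal well at 24 h and to 1436 without the second control well at 24 h. It was 1465 with these 2 groups fitted alone. With scaling 1086 genes were higher and 1011 lower.

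Against charcoal without shisha, the herbal time change differed for 1371 genes, 765 higher (8.97%) and 606 lower (7.1%). The count was 898 without the third herbal well at 24 h. With scaling 658 genes were higher and 679 lower. HES1 fell more after herbal shisha (difference -2.03), from 46.9 ± 2.92 to 1.34 ± 0.337 FPKM (mean ± SD, n = 3), against 13.6 ± 2.34 to 1.89 ± 0.362 FPKM after charcoal. DHRS3, a retinal reductase induced by retinoic acid, fell from 4.45, 5.42 and 4.42 FPKM to 2.11, 1.01 and 0.697 FPKM and went from 5.03 ± 0.587 to 14.1 ± 0.836 FPKM after charcoal (difference -2.71). TXNIP rose by less than after charcoal (difference -1.73), where it went from 4.23 ± 1.49 to 39.7 ± 3.04 FPKM. Of the early genes, 9 of 26 fell more than after charcoal and none less, but 4 or 5 did with any 1 of 10 of the 12 libraries left out, and 7 or 8 without the first herbal well at 24 h or the first charcoal well at 2 h.

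Against tobacco shisha on charcoal, the difference was called for 85 genes (0.996%), 28 higher (0.328%) and 57 lower (0.668%). A fit of these 4 groups alone called 1 gene, and leaving out 1 of their 12 libraries called from 14 (without the first tobacco well at 24 h) to 193 (without the third). CXCL8 fell by more than after tobacco (difference -0.91, adjusted p = 0.00626, limma), where it went from 122 ± 9.50 to 114 ± 22.3 FPKM. IL6 (-0.82) and CLDN1 (-0.85) also fell by more. BNIP3 had a difference of 0.66: it went from 38.5 ± 3.07 to 40.4 ± 0.904 FPKM after tobacco. Among the 26 early genes 1 change was less negative than after tobacco and none more.

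Among single genes with the largest rises, several rest on wells that disagree. TRAPPC5, a vesicle tethering subunit, was at 0.686, 34.6 and 0.478 FPKM at 2 h and 36.3, 48.7 and 44.6 FPKM at 24 h, and its rise of 3.30 was not called when the herbal groups alone were fitted (adjusted p = 0.0597, limma). ARHGAP11A and ARMC10 were each listed at 0 in 2 of 3 wells at 2 h, at 0, 6.86 and 0 FPKM and 0, 0 and 3.17 FPKM, and reached 12, 10.4 and 10.3 FPKM and 4.34, 4.17 and 5.06 FPKM. ZNF251 was listed at 0 in all 3 wells at 2 h and was at 1.87, 1.57 and 1.73 FPKM at 24 h, a call that was lost without any 1 of 5 wells. CBX6 went from 2.01, 1.99 and 9.84 FPKM to 13.2, 14.4 and 15.3 FPKM and GATAD2B from 2.22, 0.182 and 0.428 FPKM to 3.30, 3.12 and 3.20 FPKM. An exact 0 in such files can be a failed estimate, so no fold is given.

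Other large rises had close wells. DCP1B, of the mRNA decapping complex, rose from 2.12, 1.93 and 1.74 FPKM to 6.25, 5.80 and 6.21 FPKM, with control wells at 5.09, 5.13 and 5.16 FPKM and 6.30, 5.57 and 5.10 FPKM. PRR12 rose from 1.12, 1.23 and 1.27 FPKM to 4.20, 3.57 and 4.33 FPKM. GAL, the neuropeptide galanin, rose from 3.74, 4.14 and 2.73 FPKM to 6.90, 9.18 and 13 FPKM. For DCP1B and CCNF, the herbal wells at 24 h were within or next to the control range, after 2 h levels below all control wells.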

How the data were processed

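The authors deposited FPKM values per transcript for each library, per the file headers, and no read counts. Alignment with HISAT2 2.1.0, quantification with StringTie 1.3.4d and the build hg38 are named in the submitters' processing notes; neither an annotation release nor the use of strand is given in the sources used here. Each file listed 29190 transcripts under 22538 names. Spreadsheet dates stood in for 27 names, of which 26 could be restored by transcript identifier, and the transcript with the highest mean over the 30 libraries was kept for each of 22537 genes. An exact 0 can be a failed estimate, so such genes are given as listed at 0. Depth is not known: low values multiplied by length lay within 0.1 of a whole step for 44.7% to 48.9% of values per library, against 20% if evenly spread, so reads were not recovered and the relative depths from these steps are estimates.

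The test was run on the 8531 genes that reached 1 FPKM in 3 or more of the 30 libraries, on log2(FPKM + 1) with limma 3.58.1 (eBayes with trend, R 4.3.3), fitting 1 mean for each of the 10 groups without a block (residual degrees of freedom 20, prior 2.76). P-values were adjusted by Benjamini-Hochberg over all genes tested, and a gene was called, and is said to rise, fall or change, at an adjusted p below 0.05. SE come from the pooled fit, and wells are n = 3 per group. No scaling was added to the FPKM values in the main fit. The alternatives were a pseudocount of 0.1, no filter, median-of-ratios scaling, the sum over a gene's transcripts, a replicate block, the compared groups alone, a minimum change of 2-fold (treat) and each library left out in turn. Leaving out genes at 0 in any library was added after seeing the data. The fit was checked on simulated data with known changes. Tables were handled with pandas 2.3.3 and numpy 2.4.6 in Python 3.11.15, and plots drawn with matplotlib 3.10.9.

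The members, gene lists and tests were chosen with earlier results of these data known. The genes named by rule were the 12 largest rises and falls with wells that do not overlap, the 8 largest differences each way from the control and charcoal time changes and 5 from tobacco, in each list the 4 members with the lowest p, and a short fixed set. One gene of these is not reported here, though it stays in the counts. Other genes in the text are list members chosen after their values were seen. Genes of a list that were not tested were below the filter or had no matched row. The lists of synthetases, respiratory chain, YAP and SRF linked and interferon genes hold old and new symbols of the same gene. Their listed numbers count names.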

Additional observations from a re-analysis of the deposited data

Results flagged for a closer look

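The results here drew attention because the change over time after herbal shisha differed from the same change in another group, by an interaction term in limma over all 30 libraries. Against control wells it differed for 2756 genes, against charcoal alone for 1371 and against tobacco shisha on charcoal for 85. Groups of 3 wells are too small for the check on single outlying samples, which was not made. Values below are differences of log2(FPKM + 1) changes, herbal minus the other group.

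Against control wells the most negative differences were those of NR4A1 (-5.40), ANKRD1 (-4.48), ATF3 (-4.35), HES1 (-3.77), EGR1 (-3.72), ERRFI1 (-3.70), EGR3 (-3.68) and KLF10 (-3.46), all with herbal wells that stood high at 2 h. The most positive rest largely on wells that disagree or on values listed at 0. DNAJA3 (5.37) was at 0, 6.87 and 0 FPKM in herbal wells at 2 h and 8.21, 8.70 and 9.28 FPKM at 24 h, while its control wells were at 7.39, 7.42 and 7.54 FPKM at 2 h and all listed at 0 at 24 h. TRAPPC5 (3.44) was not called in a fit of the compared groups alone (adjusted p = 0.065, limma). ARHGAP11A (2.68), ARMC10 (1.83) and CBX6 (1.76) had a lone high well or 2 wells at 0 among the herbal wells at 2 h, and the ARHGAP11A call was lost without the first or the third of them. SLC27A3 (1.82) was listed at 0 in 25 of 30 libraries and was lost in the compared groups alone, and SMG1P3 (1.46) was lost with scaling. PRR12 (1.42) had close wells.

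Against charcoal alone the positive differences were those of TRAPPC5 (3.46), CEBPB (2.58), FTX (2.53), CBX5 (2.36), DPY19L1P2 (2.19), LINC01279 (1.87), ASNS (1.77) and SNORA27 (1.75), the last not read here as a small RNA. Herbal wells disagreed in most of these: CEBPB was at 7.07, 5.85 and 34.3 FPKM and CBX5 at 2.49, 18 and 18.1 FPKM at 2 h, and FTX at 7.51, 0.234 and 0.192 FPKM at 24 h. The CEBPB difference was not called with scaling. DPY19L1P2 was listed at 0 in all 3 wells at 2 h and was at 0, 2.06 and 2.27 FPKM at 24 h, and LINC01279 was at 0, 1.05 and 0 FPKM at 2 h. The negative differences were those of DHRS3 (-2.71), MARCO (-2.26), HES1 (-2.03), RARRES1 (-2.01), ARRDC3 (-1.94), CD14 (-1.88), PTGES (-1.82) and SAA4 (-1.78). MARCO, a scavenger receptor, was at 2.14, 3.23 and 2.54 FPKM at 2 h and 1.04, 0.265 and 0 FPKM at 24 h, and CD14, the lipopolysaccharide coreceptor, went from 12.2, 13.4 and 13.9 FPKM to 8.08, 6.14 and 5.12 FPKM.

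Against tobacco shisha the positive differences were those of SLC22A18 (2.23), SPAG4 (1.04), MN1 (0.77), APLN (0.73) and BNIP3 (0.66), and the negative ones those of TMEM217 (-0.94), CXCL8 (-0.91), CLDN1 (-0.85), IL18 (-0.85) and IL6 (-0.82). SLC22A18 had a well at 0 among its herbal wells at 2 h, at 2.80, 0 and 2.39 FPKM, and the IL18 difference was not called with scaling.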

How the results depend on the processing

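The 24 h against 2 h count of 4310 after herbal shisha was 3766 with scaling, 4598 with no filter, 4287 with the replicate block and 3844 to 4024 with 1 library left out. A minimum change of 2-fold left 94 (all lower) for it, 54 for the difference from the control change, 1 from the charcoal change, 0 from the tobacco change and 2 between herbal and control wells at 24 h. The difference from the control change (2756) was 2174 with scaling and 2271 to 2741 with 1 library left out. That from charcoal (1371) was 898 (without the third herbal well at 24 h) to 1556, and that from tobacco (85) was 14 to 193, 45 with no filter and 1 with the compared groups alone. Herbal against control wells at 24 h (2289) were 1465 with the compared groups alone and 1420 to 2317 with 1 library left out. Of the 155 genes named by rule, 147 kept their side of the threshold and direction in 24 h against 2 h with scaling. Another 6 lost and 1 gained a call. THY1, not called in the main fit, changed sign with scaling and was called lower (-0.103).

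Same-numbered herbal wells correlated by 0.00179, -0.00338 and 0.0671 in their deviations between the times, and 1 of 3 correlated best with its own number, so the numbers were not taken as pairs. The replicate block gave 2758, 1371, 99 and 2313 for the other 4 comparisons. Exact zeros, an unknown depth and 3 wells per group limit values near or under 1 FPKM. The sign of small changes rests on the scaling, since the median of all genes moved by 0.11, and the cause was not tested.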

Other observations

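Further gene groups after herbal shisha are read against 36.8% of all genes rising and 13.7% falling, or 21.8% and 22.6% with scaling. Of 42 zinc finger genes, mostly KRAB repressors, 21 were tested, 10 rose and none fell (median 0.16), and 9 rose with scaling. ZNF74 rose from 1.12, 1.31 and 1.28 FPKM to 2.76, 2.58 and 2.70 FPKM and ZNF32 by 0.54. In control wells none of the 21 was called. Respiratory chain subunits rose in 12 of 44 tested (64 listed) and fell in 3, both smaller shares than among all genes, but 5 rose and 16 fell with scaling, and 6 rose without the third herbal well at 24 h. Of 24 tested ribosome biogenesis genes (35 listed), 8 rose, a share near that of all genes, and 7 fell, against 2 and 9 with scaling, with 5 rises without the third herbal well at 24 h and 4 falls without the first. The acetyltransferase NAT10 rose by 0.48, and WDR43, a processome subunit, fell by 0.35.

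Lysosome and autophagy genes fell in 8 of 21 tested (32 listed) and rose in 3, with 13 and 1 under scaling, and 9 of 21 fell in control wells as well. PSAP, the saposin precursor, and HEXA, a hexosaminidase subunit, fell by 0.42 and 0.33, and CTSL, cathepsin L, rose by 0.35. Of 16 tested p53 targets (24 listed), 4 rose and 5 fell, and 3 fell without the first or the third herbal well at 2 h or with the herbal groups fitted alone. CDKN1A, the cyclin kinase inhibitor p21, fell from 88.4, 95.5 and 92.8 FPKM to 45.1, 33.7 and 33.3 FPKM, and PLK3, a stress-induced kinase, fell by 2.82. XPC, a DNA damage sensor, rose by 0.46. Of 17 tested interferon response genes (32 listed), 2 rose and 3 fell, among them B2M, the light chain of MHC class I, which fell by 0.36, and none was called in control wells. Both rises were lost without the first herbal well at 24 h. Of 11 tested endoplasmic reticulum chaperones (18 listed), 5 rose and 3 fell, against 1 and 4 with scaling. HSPA5 (BiP) fell by 0.38 and DNAJB9, a cochaperone of it, by 0.68, while SEL1L, of protein degradation from that compartment, rose by 0.40 and was not called with scaling.

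Among markers of other cell types, CD14 fell (-0.94) and CD68 rose (0.75, from 8.86, 8.57 and 9.19 FPKM to 15, 14.7 and 17.2 FPKM), and MUC1, a membrane mucin, fell from 5.36, 4.60 and 5.11 FPKM to 2.74, 1.91 and 1.46 FPKM. The summed FPKM of the endothelial list was 11.4 to 12.7 at 2 h and 13.2 to 13.9 at 24 h, nearly all from EGFL7, whose rise (0.17) was not called with scaling.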
